A study of Homo sapiens with 12 samples.

Results

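The matrix metalloproteases (MMPs), the ADAMTS proteases and their tissue inhibitors (TIMPs) were described in 4 human cancer cell lines that carried an empty vector or extra *SIVA*. The genes were taken by symbol, as MMP, ADAMTS or TIMP followed by a number. No measured value enters this rule, but it was chosen with earlier results of these data known. This gave 47 of the 57187 genes of the count table, namely 24 MMP, 19 ADAMTS and 4 TIMP genes. RNA was sequenced from 12 libraries. The lines came from breast cancer (MDA-MB-231, HCC1954) and from ovarian cancer (OVCAR8, SKOV3). From each there was 1 library of EV cells, the controls, 1 of cells stably transfected with *SIVA-WT* and 1 of cells stably transfected with *SIVA-D160N*, a point mutant of this proapoptotic protein. The transfectants were hygromycin-selected pools that carry the vector under a CMV promoter, and all cells grew in RPMI-1640 with serum. The labels call the control cells parental and untreated, while the study's own supplement also calls them EV, so that transfection with selection and the effect of *SIVA* cannot be told apart.

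MMPs are zinc proteases that are made as inactive precursors and cut collagens, other matrix proteins and cell surface proteins. Some are secreted, and the membrane-type MMPs stay anchored at the cell surface, where *MMP14* activates the precursor of *MMP2*. ADAMTS proteases are secreted relatives with thrombospondin repeats that cut proteoglycans such as versican and process procollagens, and TIMPs bind and block the active enzymes. In carcinomas much of this activity comes from stromal cells, whereas the present libraries come from cultured tumour lines.

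The total counts per library ran from 35791455 to 45890398. On these totals a gene with 0 counts is limited to between 0.0654 and 0.0838 CPM (counts scaled to library size) in a library, taking 3 counts as the limit, for counting error only. The CPM values that follow use adjusted library sizes, so the limits on their scale differ slightly. Of the 47 genes, 45 had at least 1 count. *MMP26* and *MMP27* had 0 counts in all 12 libraries. A level of at least 10 CPM was reached by 18 genes in at least 1 library, and 14 genes stayed under 1 CPM in all 12, with 27 counts as the highest value among them. These 14 were *ADAMTS4*, *ADAMTS8*, *ADAMTS18*, *ADAMTS19*, *ADAMTS20*, *MMP3*, *MMP8*, *MMP12*, *MMP20*, *MMP21*, *MMP23A*, *MMP25*, *MMP26* and *MMP27*. The vector's gene, *SIVA1*, was at 28.2, 80.6 and 68.5 CPM in the EV, *SIVA-WT* and *SIVA-D160N* libraries of MDA-MB-231, at 0, 37.9 and 26.4 CPM in HCC1954, at 65.8, 176 and 160 CPM in OVCAR8 and at 52.4, 106 and 112 CPM in SKOV3. It was higher in both transfectants than in EV in each line, and the 0 in EV of HCC1954 allows up to 0.0715 CPM on the scale of these values. That control thus stood apart from the EV libraries of the other lines, at 28.2 to 65.8 CPM, in the very gene under study. The reason was not tested, and all comparisons with EV in HCC1954 rest on this library. The amplified receptor gene *ERBB2* was at 5709 to 12130 CPM in HCC1954 and SKOV3 and at 32.2 to 77.4 CPM in the other lines. The mesenchymal marker *VIM* was at 2914 to 3945 CPM in MDA-MB-231, OVCAR8 and SKOV3 and at 94.97 to 289 CPM in HCC1954, while *CDH2* of the same list was at 110.7 to 197 CPM in OVCAR8 and SKOV3 and at most at 0.369 CPM in the breast lines. Of the ovarian markers *PAX8* was at 60.6 to 75.8 CPM in OVCAR8, 229 to 243 CPM in SKOV3 and at most 3.44 CPM in the breast lines, but *MUC16* was at 65.7 to 114 CPM in HCC1954 and at most 1.57 CPM in the ovarian lines, and *WT1* was at 5.50 to 8.01 CPM in HCC1954, 5.85 to 6.77 CPM in OVCAR8 and at most 1.10 CPM in SKOV3. *MUC16* and, in HCC1954 and SKOV3, *WT1* thus went against the tissue labels. The breast markers were low in MDA-MB-231, with *GATA3* at 1.80 to 2.85 CPM, *TFAP2A* at 3.975 to 5.73 CPM and *ESR1* at 0 in EV. *TFAP2A* was at 78.66 to 82.82 CPM in HCC1954, but also at 35.15 to 40.32 CPM in OVCAR8 and 38.24 to 45.18 CPM in SKOV3. *GATA3* was at 42.38 to 49.39 CPM in HCC1954, 5.63 to 6.24 CPM in OVCAR8 and at most 0.0245 CPM in SKOV3. *ESR1* was at 7.36 to 12.18 CPM in HCC1954 and 0.736 to 2.40 CPM in SKOV3. Breast markers in the ovarian lines thus also lay above those in MDA-MB-231, against the tissue labels. The leukocyte and the fibroblast markers each summed to at most 7.34 CPM in every library. The endothelial markers *PECAM1* and *CDH5* summed to 44.8 to 87.6 CPM in HCC1954 and to at most 1.85 CPM elsewhere.

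Of the 24 MMP genes, 9 lie together on chromosome 11 of GRCh38.p14 in RefSeq, between position 102520508 (*MMP7*) and position 102955732 (*MMP13*), in the order *MMP7*, *MMP20*, *MMP27*, *MMP8*, *MMP10*, *MMP1*, *MMP3*, *MMP12* and *MMP13*. Promoter windows of 300 bases, from 250 bases before to 50 bases after the annotated start, were taken from RefSeq for 27 of the 47 genes. There was no window for *MMP1*, *MMP3*, *MMP12* and *MMP13* of this cluster, nor for *MMP2* and *MMP9*. The shares of motifs given below therefore do not describe these genes or the cluster as a whole. The windows of *MMP7* (chr11:102530698-102530997, minus strand) and *MMP10* (chr11:102780579-102780878, minus strand) are shown because these genes of 1 cluster each reached 1 CPM in a single line, HCC1954 and SKOV3. That of *MMP14* (chr14:22836335-22836634, plus strand), the MMP with the highest level in MDA-MB-231, was added after its level was seen. Capitals mark the AP-1 element TGAGTCA, the TATA box TATAAA and the GC box GGGCGG, searched on both strands.
MMP7: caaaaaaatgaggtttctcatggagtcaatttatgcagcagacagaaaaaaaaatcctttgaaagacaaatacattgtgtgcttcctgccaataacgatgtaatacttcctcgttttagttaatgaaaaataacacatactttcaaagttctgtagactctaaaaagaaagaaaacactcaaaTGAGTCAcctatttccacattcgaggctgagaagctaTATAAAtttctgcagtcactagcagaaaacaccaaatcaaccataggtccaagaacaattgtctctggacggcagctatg
MMP10: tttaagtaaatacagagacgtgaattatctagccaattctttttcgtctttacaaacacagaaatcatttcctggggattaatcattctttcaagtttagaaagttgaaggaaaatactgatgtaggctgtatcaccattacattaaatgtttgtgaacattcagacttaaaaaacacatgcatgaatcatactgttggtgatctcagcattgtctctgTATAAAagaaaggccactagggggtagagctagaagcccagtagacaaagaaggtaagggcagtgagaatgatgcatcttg
MMP14: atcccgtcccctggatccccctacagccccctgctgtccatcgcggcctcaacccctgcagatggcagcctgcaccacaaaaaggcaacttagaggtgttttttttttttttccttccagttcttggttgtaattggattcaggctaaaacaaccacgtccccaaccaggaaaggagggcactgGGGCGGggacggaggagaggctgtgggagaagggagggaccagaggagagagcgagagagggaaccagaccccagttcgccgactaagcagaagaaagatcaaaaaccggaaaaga
The *MMP7* window held TGAGTCA at -67 and TATAAA at -30 from the start, that of *MMP10* held TATAAA at -31, and that of *MMP14* held GGGCGG at -66. TATAAA was found in 7 of the 27 genes, or 25% of their windows, and in 11.5% of all 35116 promoter windows. GGGCGG was found in 19 of the 27 genes, or 67.9% of their windows, and in 45.0% of all, and TGAGTCA in 1 of the 27, or 3.57% of the windows, and in 4.95% of all. These matches are descriptions of the letters in the windows.

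The lines differed in which proteases they made, and *TIMP2*, *TIMP1*, *ADAMTS1*, *ADAMTS3* and *MMP15* were the members above 1 CPM in all 12 libraries. In a fit of all genes with a term for the line and a term for the condition (edgeR's quasi-likelihood test), a gene was called where its Benjamini-Hochberg adjusted p (FDR) was under 0.05 and its log2 fold change reached 1.5 in either direction. The filter on low counts was passed by 35 of the 47 genes, 17 MMP, 14 ADAMTS and 4 TIMP genes. All 35 differed among the lines under this rule, against 58.3% of the 19204 genes tested. Since a gene could pass the filter through a single line, this count is a description. Against the mean of the other lines, 20 of the 35 were called in MDA-MB-231, with 23.4% of all genes called. Of these, 9 were higher and 11 lower, against 10.7% and 12.8% of all genes. In HCC1954 24 were called (27.8% of all genes), 14 higher and 10 lower (16.8% and 11.1%). In OVCAR8 25 were called (24.5% of all genes), 17 higher and 8 lower (15.2% and 9.34%). In SKOV3 24 were called (24.9% of all genes), 14 higher and 10 lower (14.7% and 10.1%). The mean of the other lines is taken over fitted log2 levels, so a line with 0 counts weighs heavily in it. In OVCAR8, *ADAMTS5* was called higher at a mean of 0.694 CPM, although SKOV3 was at 13.98 CPM. *MMP2*, with 0 counts in OVCAR8 and MDA-MB-231, was not called lower in either. These counts therefore do not rank the lines by level. The 3 libraries of a line are its repeats here, so these p-values measure the spread between libraries that also differ in condition, and not between cultures.

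**Figure D1:**
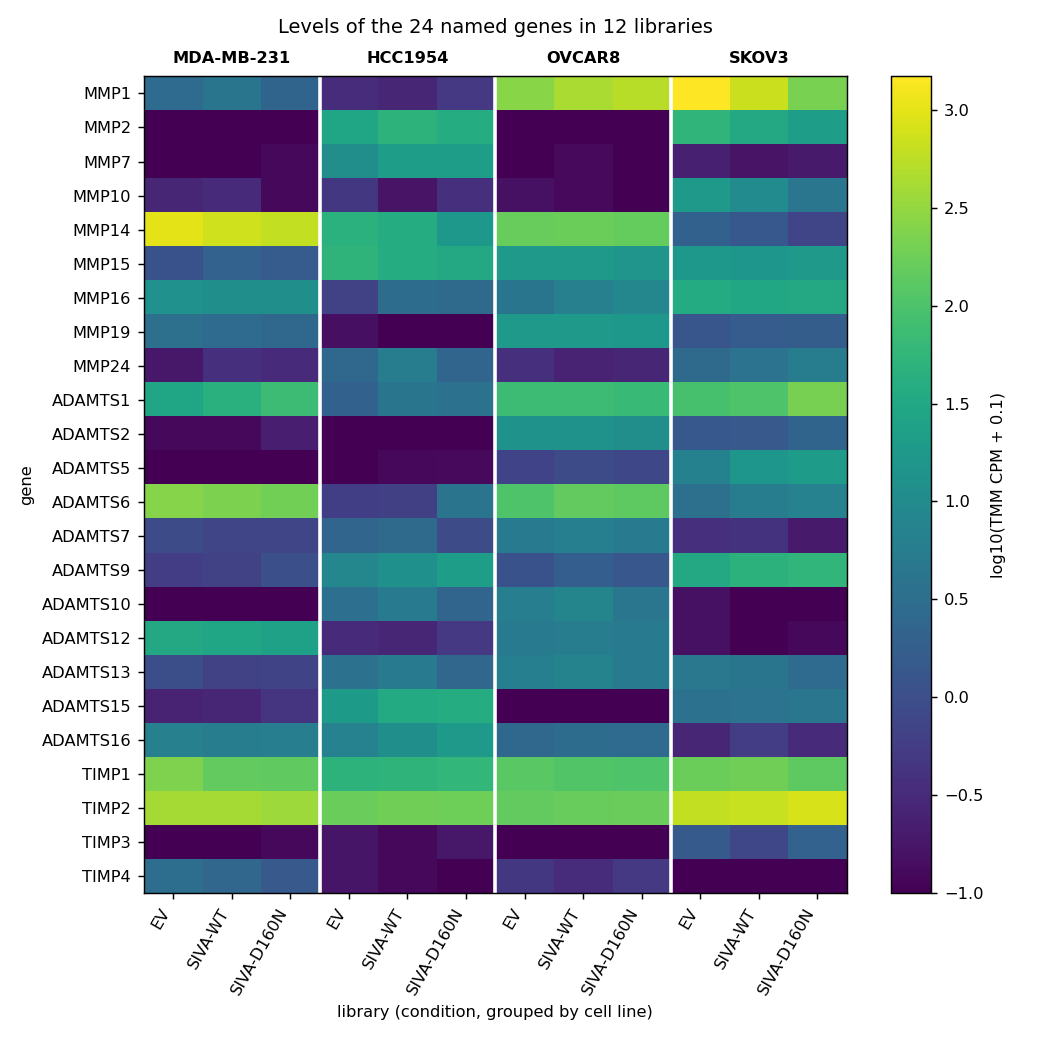
Colour shows log10(TMM CPM + 0.1) of 24 genes (rows) in the 12 libraries (columns, grouped by cell line). *MMP14* and *ADAMTS6* are brightest in MDA-MB-231, *MMP1* in OVCAR8 and SKOV3, and *TIMP1* and *TIMP2* are bright in all 12.

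The summed MMP level differed by 12.7-fold across the libraries, from 128 to 1628 CPM. In MDA-MB-231 it was 1018, 766 and 632 CPM in EV, *SIVA-WT* and *SIVA-D160N*, in HCC1954 149, 169 and 128 CPM, in OVCAR8 482, 674 and 746 CPM, and in SKOV3 1628, 792 and 299.9 CPM. One gene carried most of the sum in 3 of the lines. In MDA-MB-231 *MMP14* made up 97.3% of the MMP counts in EV (95% exact binomial interval 97.2% to 97.5%, which like those that follow covers counting error only and not the spread between cultures) and 96.6% in *SIVA-D160N* (96.4% to 96.8%). *MMP1* made up 55.8% in EV and 72.3% in *SIVA-D160N* of OVCAR8 (intervals 55.1% to 56.5% and 71.8% to 72.9%), and 91.5% in EV and 71.4% in *SIVA-D160N* of SKOV3 (91.3% to 91.7% and 70.6% to 72.2%). HCC1954 was spread more widely, with *MMP15* leading at 34.9% in EV (33.8% to 36.1%) and *MMP2* leading at 29.8% and 29.4% in its transfectants. The summed ADAMTS level ran from 50.4 to 339.8 CPM, a 6.74-fold range, and the summed TIMP level from 216 to 965 CPM, a 4.47-fold range, with *TIMP2* leading in all 12 libraries. No test was made of the sums, and in these pools fewer cells that make a gene and less RNA per cell cannot be told apart.

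**Figure D2:**
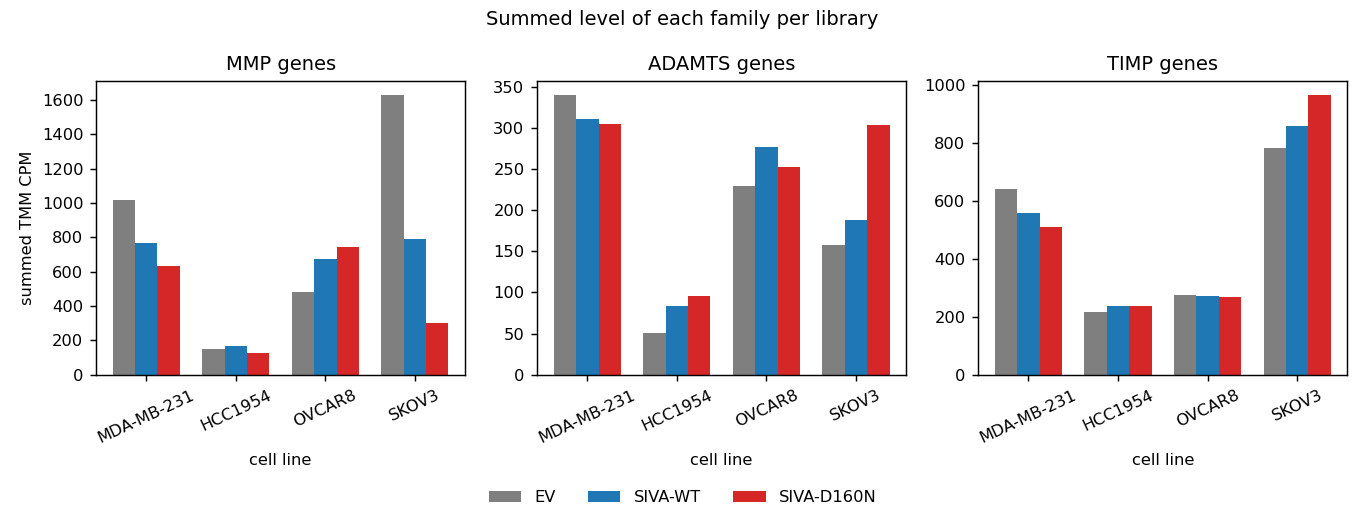
Bars give the summed TMM CPM of the MMP, ADAMTS and TIMP genes in each library, by cell line (horizontal axis) and condition (colour), with a separate vertical scale for each family. In SKOV3 the MMP sum is 1628 CPM in EV and 299.9 CPM in *SIVA-D160N*, while the ADAMTS sum is 157 and 303 CPM.

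Among the collagenases, which cut fibrillar collagen, *MMP1* was the member with the widest range. It was at 1489, 689 and 214 CPM in EV, *SIVA-WT* and *SIVA-D160N* of SKOV3 and at 269, 445 and 540 CPM in OVCAR8. In MDA-MB-231 it was at 2.82, 4.11 and 2.12 CPM, and in HCC1954 at 0.238, 0.184 and 0.398 CPM. Thus OVCAR8 and SKOV3 overlapped with each other and both lay above the breast lines. In *SIVA-D160N* against EV, *MMP1* was 6.95-fold lower within SKOV3 and 2.01-fold higher within OVCAR8, and within a line there is 1 library per condition and so no replicate check. Across the 4 lines its log2 fold change was -0.65 (SE 0.55, edgeR FDR 0.643), and without SKOV3 it was 0.51. *MMP13* was at 3.67, 9.06 and 8.95 CPM in HCC1954 and at 2.75, 1.86 and 0.54 CPM in SKOV3, and at most at 0.0757 CPM in the other lines. Its levels in HCC1954 lay above those in SKOV3 in every library. *MMP8*, the neutrophil collagenase, had at most 1 count in a library.

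**Figure D3:**
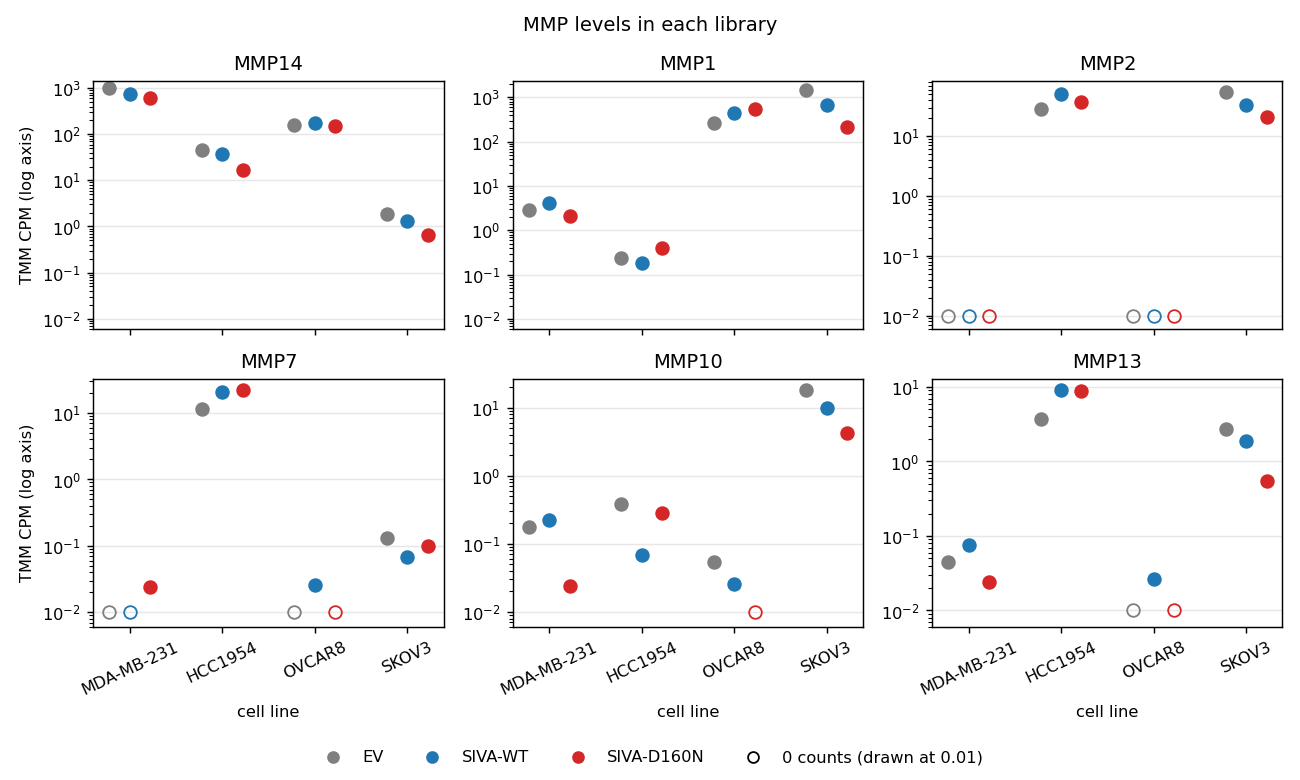
Each point is the TMM CPM of 1 library on a log axis, by cell line and condition (colour), for 6 MMP genes, with open points for 0 counts, drawn at 0.01. *MMP1*, *MMP2*, *MMP10* and *MMP13* are highest in EV and lowest in *SIVA-D160N* in SKOV3, and *MMP14* is lowest in *SIVA-D160N* in each line.

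The gelatinases cut denatured collagen and basement membrane collagen. *MMP2* was at 28.1, 50.2 and 37.8 CPM in EV, *SIVA-WT* and *SIVA-D160N* of HCC1954 and at 54.1, 32.9 and 20.8 CPM in SKOV3, and the libraries of these lines overlapped. It had 0 counts in all libraries of MDA-MB-231 and OVCAR8, so that its mean in HCC1954 was at least 1460-fold higher than in OVCAR8, taking 3 counts over the 3 libraries of a line as the limit. The lines in which *MMP2* had 0 counts were those with the highest levels of *MMP14*. Between EV and *SIVA-D160N*, *MMP2* was 2.61-fold lower in the SKOV3 library and was 28.1 and 37.8 CPM in those of HCC1954. The fitted difference of this change between tissues, ovarian minus breast, was -1.81 on the log2 scale (SE 0.39, edgeR FDR 0.863). *MMP9*, the other gelatinase, was low throughout, with its highest value, 2.44 CPM, in *SIVA-D160N* of HCC1954, where EV and *SIVA-WT* were at 0.739 and 0.805 CPM.

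Of the stromelysins and matrilysins, which have a broad range of matrix substrates, *MMP10* and *MMP7* each reached 1 CPM in 1 line alone. *MMP10* was at 18.0, 10.0 and 4.30 CPM in EV, *SIVA-WT* and *SIVA-D160N* of SKOV3. Its mean there was 44.1-fold above that of HCC1954, the next line, and the other lines had at most 0.381 CPM in a library. *MMP7* was at 11.6, 20.7 and 22.02 CPM in the same order in HCC1954, 183-fold above SKOV3 by the means. Over the 3 libraries it had 12 counts in SKOV3 and 1 count in each of MDA-MB-231 and OVCAR8. *MMP11*, a stromelysin that furin activates inside the cell, was at 4.92 to 6.06 CPM in OVCAR8 and at 5.02, 3.99 and 2.27 CPM in EV, *SIVA-WT* and *SIVA-D160N* of MDA-MB-231. *MMP3*, which lies beside *MMP1* in the chromosome 11 cluster, had at most 0.653 CPM in a library.

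*MMP14*, the main membrane-type MMP, was at 991, 739 and 610.5 CPM in EV, *SIVA-WT* and *SIVA-D160N* of MDA-MB-231. It was at 159, 172 and 152 CPM in OVCAR8, at 45.8, 37.6 and 16.5 CPM in HCC1954 and at 1.85, 1.32 and 0.638 CPM in SKOV3. No library of one line overlapped with those of another. By the means MDA-MB-231 was 4.84-fold above OVCAR8 and 615-fold above SKOV3, and MDA-MB-231 differed from the mean of the other lines by 5.38 on the log2 scale (SE 0.17, edgeR FDR 3.69e-10). Per kilobase of exon, *MMP14* was the first of the 47 genes in MDA-MB-231 at 169 ± 41.9 RPKM (SD, n = 3), ahead of *TIMP1* at 119.7 ± 34.3 RPKM. On the same scale *MMP1* led in OVCAR8 at 153 ± 50.2 RPKM and in SKOV3 at 291 ± 235 RPKM, and *TIMP1* led in HCC1954 at 36.5 ± 2.61 RPKM.

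The membrane-type genes *MMP15*, *MMP16*, *MMP17* and *MMP24* were highest in other lines. *MMP15* was at 51.9, 38.7 and 32.7 CPM in EV, *SIVA-WT* and *SIVA-D160N* of HCC1954, at 15.1 to 18.3 CPM in OVCAR8 and SKOV3 and at 1.043 to 1.97 CPM in MDA-MB-231. *MMP16* was at 37.5, 32.3 and 32.3 CPM in SKOV3 and at 11.7 to 12.7 CPM in MDA-MB-231. In OVCAR8 *MMP16* was at 4.11, 6.53 and 8.30 CPM and in HCC1954 at 0.572, 2.88 and 2.70 CPM, so that it was higher in both transfectants than in EV in these lines. *MMP24* was at 2.72, 3.74 and 5.87 CPM in SKOV3 and at 2.34, 5.84 and 2.19 CPM in HCC1954, with overlap between the lines, and at most at 0.278 CPM in the other lines. *MMP17*, which has a lipid anchor, was at 4.36 to 5.22 CPM in OVCAR8 and under 1 CPM elsewhere. *MMP19*, a secreted MMP, was at 16.8 to 17.7 CPM in OVCAR8, 6.11-fold above MDA-MB-231 by the means, and had 2 counts in all of HCC1954. *MMP28* reached 1.72 CPM in SKOV3 and *MMP23B* 1.44 CPM in OVCAR8, and the level of *MMP23B* is uncertain because *MMP23A*, annotated as a transcribed pseudogene, is a near copy of it.

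*ADAMTS1*, *ADAMTS5*, *ADAMTS9* and *ADAMTS15* cut large proteoglycans such as versican. *ADAMTS1* was at 28.6, 44.9 and 73.6 CPM in EV, *SIVA-WT* and *SIVA-D160N* of MDA-MB-231, at 90.4, 104 and 206 CPM in SKOV3 and at 1.86, 4.03 and 3.61 CPM in HCC1954. In OVCAR8 it was at 73.3, 71.6 and 65.6 CPM, the only line in which *SIVA-D160N* lay below EV. *ADAMTS5*, its neighbour on chromosome 21, was at 6.65, 15.3 and 19.98 CPM in SKOV3, 20.1-fold above OVCAR8 by the means, and had 0 counts in MDA-MB-231. Both genes were thus at their highest in *SIVA-D160N* of SKOV3, where *ADAMTS1* was 2.28-fold and *ADAMTS5* 3-fold above EV.

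*ADAMTS9* was at 33.1, 48.7 and 54.7 CPM in EV, *SIVA-WT* and *SIVA-D160N* of SKOV3 and at 8.58, 12.3 and 20.9 CPM in HCC1954. It was at 1.03, 1.67 and 1.27 CPM in OVCAR8 and at 0.466, 0.555 and 0.927 CPM in MDA-MB-231. Both transfectants lay above EV in each of the 4 lines. *ADAMTS15* was at 18.4, 35.8 and 37.7 CPM in HCC1954 and at 3.64, 3.76 and 4.25 CPM in SKOV3, and had 0 counts in OVCAR8. *ADAMTS8*, which lies close to *ADAMTS15* on chromosome 11, had 1 count over all 12 libraries. *ADAMTS4* and *ADAMTS20*, which also cut proteoglycans, had at most 0.253 CPM.

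**Figure D4:**
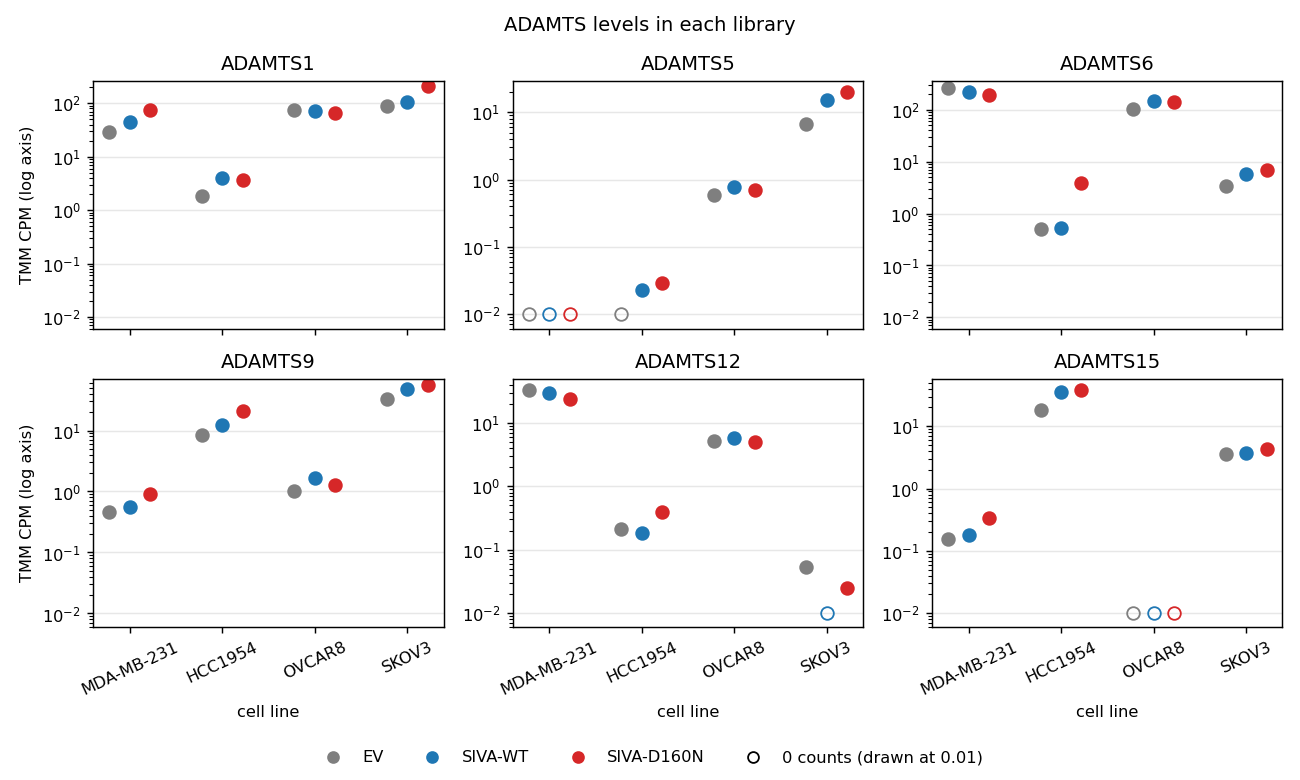
Each point is the TMM CPM of 1 library on a log axis, by cell line and condition (colour), for 6 ADAMTS genes, with open points for 0 counts, drawn at 0.01. *ADAMTS9* is higher in both transfectants than in EV in every line, and *ADAMTS5* and *ADAMTS1* are highest in *SIVA-D160N* of SKOV3.

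*ADAMTS6* had the highest ADAMTS level. It was at 261, 222 and 190.1 CPM in EV, *SIVA-WT* and *SIVA-D160N* of MDA-MB-231 and at 104, 146 and 139 CPM in OVCAR8, and these lines did not overlap. In SKOV3 it was at 3.38, 5.66 and 6.87 CPM, and in HCC1954 at 0.501, 0.529 and 3.86 CPM, with the last value 7.72-fold above EV on 136 against 21 counts. *ADAMTS10*, its closest relative, was at 4.23 to 7.78 CPM in OVCAR8 and at 3.19, 5.13 and 2.22 CPM in HCC1954, and had 0 counts in MDA-MB-231 and 2 in SKOV3.

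*ADAMTS12* and *ADAMTS7*, which cut the cartilage protein COMP, had different lines of highest level. *ADAMTS12* was at 33.0, 29.6 and 24.3 CPM in EV, *SIVA-WT* and *SIVA-D160N* of MDA-MB-231, 5.41-fold above OVCAR8 by the means, and at most at 0.398 CPM in HCC1954 and SKOV3. *ADAMTS7* was at 5.28, 6.19 and 5.01 CPM in OVCAR8 and at 2.19, 2.62 and 0.824 CPM in HCC1954. The procollagen proteinase *ADAMTS2* was at 13.7, 14.0 and 11.3 CPM in OVCAR8, at 1.32, 1.39 and 2.11 CPM in SKOV3 and at 0 in HCC1954. *ADAMTS3*, of the same clade, was at 8.08 to 9.66 CPM in OVCAR8 and at 6.36, 1.95 and 1.74 CPM in SKOV3, and *ADAMTS14* reached 2.13 CPM in HCC1954. *ADAMTS13*, which cuts von Willebrand factor, was at 5.22 to 7.31 CPM in OVCAR8, at 4.54, 4.14 and 2.80 CPM in SKOV3, at 3.50, 5.18 and 2.33 CPM in HCC1954 and under 1 CPM in MDA-MB-231. *ADAMTS16* was at 6.87, 11.96 and 17.9 CPM in HCC1954 and at 5.60 to 6.59 CPM in MDA-MB-231. *ADAMTS17* reached 7.13 CPM in EV of SKOV3 and 6.10 CPM in EV of MDA-MB-231.

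The inhibitors split into a pair made by all lines and a pair made by few. *TIMP2* was at 608, 672 and 825 CPM in EV, *SIVA-WT* and *SIVA-D160N* of SKOV3, at 409, 406 and 367 CPM in MDA-MB-231, at 166, 188 and 182 CPM in HCC1954 and at 148, 161 and 163 CPM in OVCAR8. SKOV3 lay above the mean of the other lines by 1.65 on the log2 scale (SE 0.09, edgeR FDR 1.31e-08), and the libraries of HCC1954 lay just above those of OVCAR8. *TIMP1* was at 230.1, 148 and 141 CPM in MDA-MB-231, at 174, 184 and 138 CPM in SKOV3, at 126, 109.6 and 106 CPM in OVCAR8 and at 49.9, 51.2 and 57.0 CPM in HCC1954. MDA-MB-231 and SKOV3 overlapped for *TIMP1*. *TIMP3*, which binds to the matrix and also inhibits ADAMTS proteases, was at 1.43, 0.672 and 1.99 CPM in SKOV3 and at most at 0.0852 CPM elsewhere. *TIMP4* was at 3.06, 2.27 and 1.39 CPM in MDA-MB-231 and had 0 counts in SKOV3.

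The study asked how *SIVA-WT* and *SIVA-D160N* change gene expression against EV and against each other. In *SIVA-D160N* vs EV, 0 of the 35 tested members were called by edgeR, against 0.00521% of the 19204 genes, which is 1 gene, and DESeq2 and limma-voom also called 0 members. At an unadjusted p under 0.05, 9 members (25.7%) stood apart, against 13.9% of all genes, with 4 higher and 5 lower in *SIVA-D160N*, against 6.2% and 7.7% of all genes. With the fold threshold added, 1 member was left, against 1.14% of all genes. The log2 fold change was positive for 5 of 17 MMP genes (median -0.30), for 8 of 14 ADAMTS genes (median 0.38) and for 2 of 4 TIMP genes (median -0.07), beside 47.6% of all genes (median -0.01).

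Of these 9, *ADAMTS9* had the smallest p, with a log2 fold change of 0.88 (SE 0.18, edgeR FDR 0.12), higher in 4 of 4 lines. *MMP14* had a log2 fold change of -0.82 (SE 0.20, FDR 0.149) and was lower in 4 of 4 lines. In OVCAR8 this was 152 against 159 CPM in EV, on 5873 against 5857 counts before scaling. In SKOV3 it rested on 26 against 70 counts. *ADAMTS1* had a log2 fold change of 0.83 (SE 0.23, FDR 0.182) and was higher in 3 lines. All 3 genes lay under the fold threshold, whereas the study lists *MMP14* among its differentially expressed genes of *SIVA-D160N* against EV. DESeq2 put the FDR at 0.00273 for *ADAMTS9*, 0.00962 for *MMP14* and 0.0362 for *ADAMTS1*, so that their side of an FDR of 0.05 depended on the processing. Over all alternatives, tools and others, the lowest FDR was 0.00257 for *ADAMTS9*, 0.000422 for *MMP14*, 0.00114 for *ADAMTS1* and 0.0397 for *ADAMTS5*. None of these genes also passed the fold threshold under an alternative. *MMP10* had the lowest fold change of the 24 named genes, -1.72 (SE 0.49, edgeR FDR 0.19). It was called when no filter on low counts was used (FDR 0.00797), and SKOV3 was the line in which it was above 1 CPM. *ADAMTS5* had a log2 fold change of 1.12 (SE 0.34, FDR 0.221), and without SKOV3 it was 0.36. The other members under an unadjusted p of 0.05 were *ADAMTS15* (0.70, FDR 0.27), *ADAMTS13* (-0.53, FDR 0.321), *MMP17* (-0.52, FDR 0.342) and *MMP11* (-0.67, FDR 0.35).

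**Figure D5:**
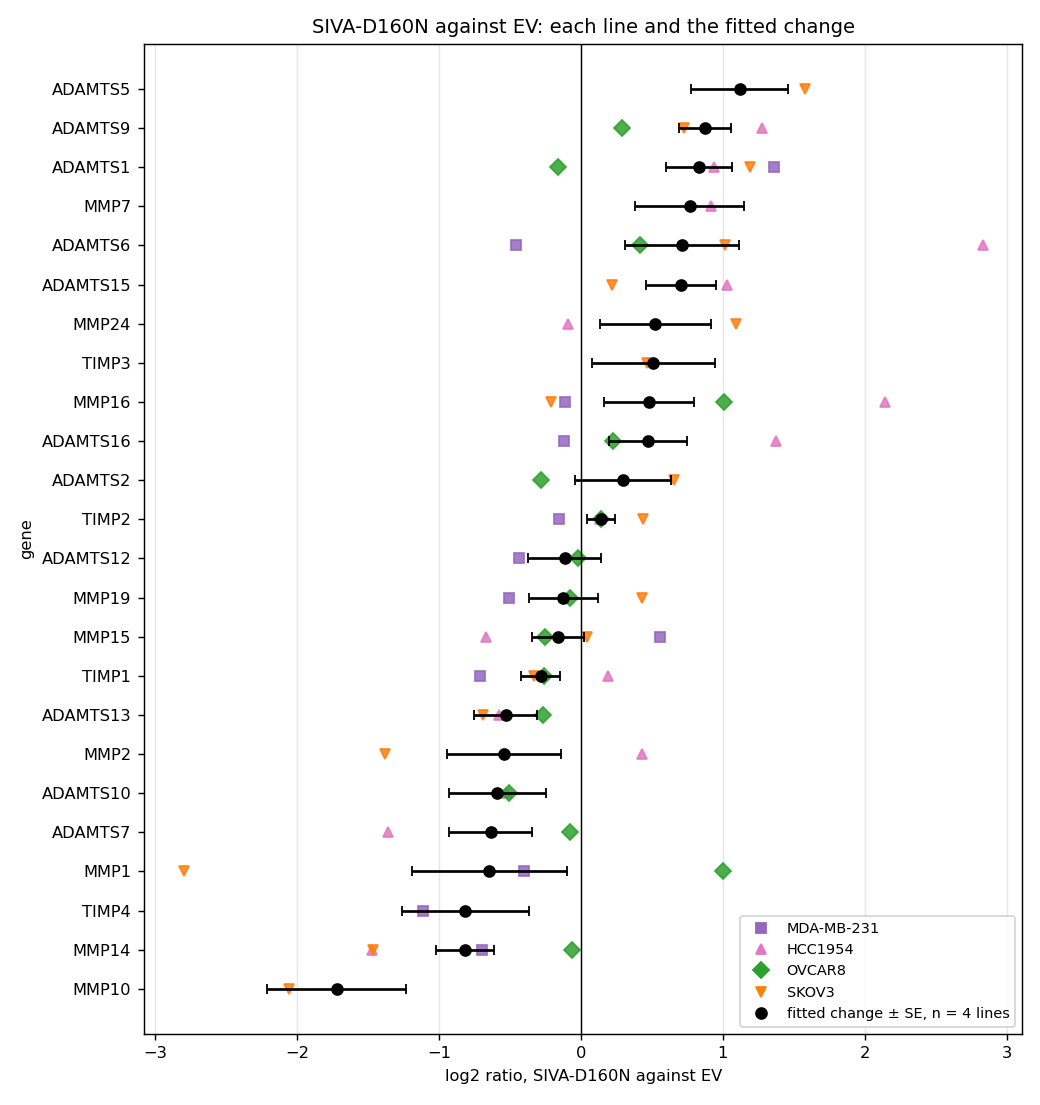
Coloured points are the log2 ratio of *SIVA-D160N* against EV within a line, where at least 1 of the pair of libraries reached 1 CPM, and black points are the edgeR log2 fold change with its SE over the 4 lines, for 24 genes (vertical axis). The lines are far apart for *MMP1* (-2.80 in SKOV3, 1.00 in OVCAR8), and none of the 24 fitted values was called.

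In *SIVA-WT* vs EV, 0 members were called, as were 0% of all genes, and DESeq2 and limma-voom called 0 members. At an unadjusted p under 0.05 there were 3 members (8.57%), against 2.49% of all genes, namely *ADAMTS9* (log2 fold change 0.54), *ADAMTS5* (0.92) and *TIMP3* (-1.11), each with an edgeR FDR of 1. In *SIVA-D160N* vs *SIVA-WT*, 0 members and 0% of all genes were called by edgeR, and DESeq2 and limma-voom called 0 members. There, 5 members (14.3%) had an unadjusted p under 0.05, against 6.8% of all genes, and 1 was left with the fold threshold added, against 0.443%. *TIMP3* was higher, with 1.62 (SE 0.46, FDR 0.647), and *ADAMTS10* (-1.02), *MMP14* (-0.56), *ADAMTS13* (-0.59) and *ADAMTS7* (-0.76) were lower. The *TIMP3* value rests on SKOV3, where it was at 30 counts in *SIVA-WT* and 81 in *SIVA-D160N*. The contrasts share libraries, so they are not independent of each other.

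Whether the change between *SIVA-D160N* and EV differed between ovarian and breast lines was tested as an interaction. By edgeR 0 members were called, against 0.00521% of all genes, with 3 at an unadjusted p under 0.05 (4.76% of all genes) and 2 with the fold threshold added (2.02%), and DESeq2 and limma-voom called 0 members. The smallest p belonged to *MMP13*, with -3.42 on the log2 scale (SE 0.67, edgeR FDR 0.484). *MMP13* and *MMP2* were called when no filter was used (FDR 0.00447 and 0.0431), and both values compare SKOV3 with HCC1954, with 1 library per condition each, since OVCAR8 had at most 1 count and MDA-MB-231 at most 3 counts of either gene.

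Within single lines the ratios of *SIVA-D160N* to EV were described without a test, for genes with at least 1 CPM in either library and a ratio of at least 2-fold. In SKOV3 10 of 22 members were that far apart, against 6.19% of all genes. Of these, 4 were higher and 6 lower, against 2.01% and 4.17% of all genes. *MMP1* (6.95-fold), *MMP13* (5.09-fold), *MMP10* (4.2-fold), *ADAMTS3* (3.65-fold), *MMP14* (2.9-fold) and *MMP2* (2.61-fold) were lower, and *ADAMTS5* (3-fold), *ADAMTS1* (2.28-fold), *MMP24* (2.16-fold) and *ADAMTS6* (2.03-fold) were higher. Of the 6 that were lower, 3 lie in the chromosome 11 cluster. In the same libraries the 6 AP-1 subunits measured, transcription factors singled out here after their values were seen, did not all lie on one side of EV. *FOS* was at 136, 18.2 and 10.9 CPM in EV, *SIVA-WT* and *SIVA-D160N*, *JUNB* at 107, 90.4 and 78.9 CPM, *JUND* at 43.7, 36.8 and 37.6 CPM and *FOSL1* at 224, 174 and 188 CPM, while *FOSL2* was at 101, 173 and 246 CPM and *JUN* at 158, 155 and 193 CPM. *ERBB2* was at 12130, 8851 and 5943 CPM. Their part in the result was not tested.

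In HCC1954 10 of 21 members were at least 2-fold apart, against 8.48% of all genes, with 8 higher and 2 lower against 3.1% and 5.37%. These ratios rest on the EV library in which *SIVA1* was at 0 CPM. *ADAMTS6* (7.72-fold), *MMP16* (4.72-fold), *MMP9* (3.31-fold), *ADAMTS16* (2.61-fold), *MMP13* (2.44-fold), *ADAMTS9* (2.43-fold), *ADAMTS14* (2.13-fold) and *ADAMTS15* (2.05-fold) were higher, and *MMP14* (2.78-fold) and *ADAMTS7* (2.66-fold) were lower. *VIM* was at 94.97, 159 and 289 CPM in EV, *SIVA-WT* and *SIVA-D160N* of HCC1954, and its part in the result was not tested. In MDA-MB-231 3 of 15 members were apart, against 4.76% of all genes, with *ADAMTS1* 2.58-fold higher (1.3% of all genes) and *MMP11* (2.21-fold) and *TIMP4* (2.2-fold) lower (3.46% of all genes). In OVCAR8 2 of 22 were apart, against 1.07% of all genes, *MMP1* (2.01-fold) and *MMP16* (2.02-fold), both higher (0.771% of all genes). SKOV3 and HCC1954 also had the highest shares of all genes apart. Whether the ratios differ between lines was not tested, with 1 library per line and condition.

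The genes that activate or restrain these proteases were followed in a list of 35 genes with 5 groups: the plasmin system, proprotein convertases, surface and secreted regulators, ADAMTS substrates and AP-1 subunits. The count table held 34 of them, and 29 were tested. In *SIVA-D160N* vs EV 14 were higher and 15 lower in the fit, 0 were called by edgeR and 6 had an unadjusted p under 0.05 (13.9% of all genes), with a median log2 fold change of -0.03. In *SIVA-WT* vs EV 15 were higher and 14 lower, with 0 called and 1 at an unadjusted p under 0.05 (2.49% of all genes), and in *SIVA-D160N* vs *SIVA-WT* 12 were higher and 17 lower, with 0 called and 3 at an unadjusted p under 0.05 (6.8% of all genes). As values, *PLAU*, which makes plasmin from plasminogen, was at 1943, 1523 and 1245 CPM in EV, *SIVA-WT* and *SIVA-D160N* of MDA-MB-231, its highest line, and the plasminogen gene *PLG* had 0 counts in all 12 libraries. Versican (*VCAN*), the shared substrate of several ADAMTS proteases, was at 523, 371 and 424 CPM in SKOV3 and at 23.3 to 30.6 CPM in OVCAR8, and at most at 1.01 CPM in the breast lines.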

How the data were processed

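RNA was extracted with Trizol and stranded mRNA libraries were sequenced in pairs of reads. The authors deposited whole counts per gene, without normalization, and the submitters' processing notes name FastQC, STAR 2.5.3a, edgeR and GRCh38. The annotation release is not given in the sources used here. The deposited CPM table, which holds the same libraries after scaling, was not used. All value columns matched a library by name.

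The counts were modelled with edgeR 4.0.16 in R 4.3.3 (glmQLFit and glmQLFTest with default settings, TMM normalization with factors of 0.962 to 1.06) over all 12 libraries, with the cell line and the condition as terms. The study used this model and these thresholds but does not state the terms. It reports many more differentially expressed genes between *SIVA-D160N* and EV than were called here, with *MMP14* among them. Why the results differ was not tested. filterByExpr was run by cell line and left 19204 genes, because the filter by condition (17211 genes) asks for 4 libraries and drops genes made by a single line. P-values were adjusted over all genes tested. CPM values use TMM library sizes over the tested genes, RPKM values use the union of exons in GENCODE v44lift37, and ratios within a line use a prior count of 2 in the log2. The cell line was the replicate block, since the 3 libraries of a line share its cells. Deviations from the condition means correlated at 0.934 to 0.972 within lines. Between lines they correlated at -0.45 to -0.186. Subtracting a mean over the lines makes such values negative on average, so their sign is no ground for the block. The 66 pairs of libraries held 0 identical pairs. On simulated data with 200 altered genes, in *SIVA-D160N* vs EV, run on 18932 genes, 100% of 132 genes changed by 2 or 3 on the log2 scale were called, with 0 unchanged genes called. The altered genes were above 2 CPM in every line and changed alike in all lines. Most members were below that level in some line, so the simulation does not show how well changes in them would be found.

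Alternatives were DESeq2 1.42.0, limma-voom (limma 3.58.1), DESeq2 size factors, other filters and thresholds, libraries left out and no block. Genes were named if they were TIMPs, reached 10 CPM in a library or were among the 5 smallest p of a condition contrast. The members and lists were chosen with earlier results of these data known. Genes with lower levels were described by their role. Plots used Python 3.11.15 and matplotlib 3.10.9. Protein sequences were not used here.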

Additional observations from a re-analysis of the deposited data

Results flagged for a closer look

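Of 48 sets of 4 line ratios checked for a line far from the other 3, 2 held one, and chance alone gives about 2.4. The log2 ratio of *ADAMTS15* in *SIVA-WT* vs EV was 0.96 in HCC1954 (18.4 CPM in EV and 35.8 CPM in *SIVA-WT*), far from the other lines. Of those, OVCAR8 had 0 counts of the gene in each library and MDA-MB-231 had 7, so their ratios rest on no or few counts. The log2 ratio of *ADAMTS7* in the same comparison was -0.34 in MDA-MB-231, where both libraries were under 1 CPM (0.843 and 0.656 CPM), far from the other lines.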

How the results depend on the processing

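Of 120 alternative values of the counts and sums, 113 stayed within 1.5 times the reported value. An unadjusted p under 0.05 with the fold threshold gave 1 member in place of 0 in *SIVA-D160N* vs EV, 1 between *SIVA-D160N* and *SIVA-WT* and 2 in the difference between tissues. With no filter on low counts there was 1 member in *SIVA-D160N* vs EV and 2 in the difference between tissues. With no CPM minimum, 5 members in place of 3 were at least 2-fold apart within MDA-MB-231 and 5 in place of 2 within OVCAR8. Of 702 alternative values of the named genes, 1 passed the thresholds and 33 had another sign, and 0 of the reported values of these genes had passed. The cause was not tested. RLE size factors moved the median log2 fold change of all genes by at most 0.008.

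With no replicate block for the line, 0 members were called in each condition contrast and in the difference between tissues, and the fold change had another sign for *ADAMTS2* (-0.15) and *ADAMTS6* (-0.12) in *SIVA-D160N* vs EV, *MMP16* (-0.032) and *MMP2* (0.017) in *SIVA-WT* vs EV, and *ADAMTS2* (-0.19) and *ADAMTS6* (-0.14) in *SIVA-D160N* vs *SIVA-WT*. The block changed no other call. DESeq2 turned *MMP15* (0.014) in *SIVA-WT* vs EV and *ADAMTS12* (0.078) in *SIVA-D160N* vs *SIVA-WT*, and limma-voom turned *MMP2* (0.083) in *SIVA-WT* vs EV.

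With a line left out, the log2 fold change of these genes took both signs. For *SIVA-D160N* vs EV they were *ADAMTS12* (-0.26 to 0.20), *MMP19* (-0.33 to 0.072), *MMP15* (-0.30 to 0.05), *ADAMTS2* (-0.03 to 0.94), *MMP1* (-1.64 to 0.51) and *MMP2* (-1.38 to 0.43). *MMP1* and *MMP2* turned without SKOV3. In *SIVA-WT* vs EV they were *MMP19* (-0.17 to 0.064), *ADAMTS13* (-0.14 to 0.22), *MMP15* (-0.19 to 0.17), *MMP1* (-0.48 to 0.57) and *MMP2* (-0.72 to 0.83). In *SIVA-D160N* vs *SIVA-WT* they were *ADAMTS12* (-0.22 to 0.25), *MMP19* (-0.15 to 0.007), *ADAMTS16* (-0.18 to 0.25), *ADAMTS6* (-0.009 to 0.74), *MMP24* (-0.89 to 0.36), *MMP16* (-0.059 to 0.11), *ADAMTS2* (-0.076 to 0.85), *ADAMTS5* (-0.13 to 0.37), *TIMP1* (-0.19 to 0.011) and *TIMP2* (-0.06 to 0.091). Members with under 1 CPM in most lines rest on few counts, and a line with 1 library per condition gives no spread of its own.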
